A study of Mus musculus with 7 samples.

Results

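MiR-150 is a microRNA (miRNA) made from 1 hairpin, and both of its arms, mmu-miR-150-5p and mmu-miR-150-3p, are described here across 7 small RNA libraries of mouse CD8+ T cells. They were found by name and are 2 of the 1978 mature miRNAs listed, each on 1 line of the table. The libraries came from spleens of gBT-I mice, a strain whose T cells carry a transgenic receptor for a viral glycoprotein peptide, so the cells of every group share that receptor. There were 2 libraries of neonatal CD44hiCD122hi cells, called virtual memory (VM), and 1 of neonatal CD44loCD122lo cells, called true naive (TN). They were set beside 2 libraries of adult VM cells and 2 of adult TN cells, sorted with the same markers, and the labels give no age in days. Cells were enriched on CD8 beads and then sorted by flow cytometry. Nothing in the labels ties replicates to separate animals, so the spread behind each p-value may be technical only.

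A miRNA hairpin is cut by Dicer into a short duplex, of which 1 strand, the guide, is kept by an Argonaute protein, while the other, the passenger, is mostly degraded. For miR-150 the guide is the 5p arm. It is abundant in mature resting B and T lymphocytes, is known to repress Myb, which encodes a transcription factor of lymphocyte progenitors, and is known to fall when T cells are activated. In bulk libraries, fewer cells that hold a miRNA and less of it per cell cannot be told apart.

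On GRCm38 (mm10) Mir150 lies on the plus strand of chromosome 7, from 45121757 to 45121821, and overlaps no other gene of the GENCODE M21 annotation. The nearest gene is Gm45552, a noncoding RNA of the same strand that starts 96 bases further on. On the other side Fcgrt, which encodes the neonatal Fc receptor, ends 17906 bases before it. The mature 3p arm lies at chr7:45121798-45121819 on the plus strand. The RefSeq sequences on GRCm38.p6 held 1 of the 2 member names, miR-150-3p. It is shown with both arms of miR-139, the hairpin whose arm ratio changed most like that of miR-150 with age. Capitals mark the seed, bases 2 to 8, which pairs with targets.
miR-150-3p: cUGGUACAggccugggggauag
miR-139-5p: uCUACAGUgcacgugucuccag
miR-139-3p: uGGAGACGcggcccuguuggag
The 3 seeds differ, and among the 1679 mature names in the RefSeq table, 0 others had the seed of miR-150-3p.

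Library totals ranged from 1577031 to 3278451 counts. The adult VM replicates were farther apart than the others, with an SD of the log2 difference between replicates, over tested miRNAs, of 0.71, against 0.41 for neonatal VM and 0.45 for adult TN. Of 13 marker miRNAs of erythroid, myeloid, platelet or progenitor and stromal cells, 1 (miR-214-3p) was at 0 in every library. The erythroid miR-451a stayed at or under 9.65 CPM, a count scaled to library depth, and the myeloid miR-223-3p at or under 15.6 CPM. The summed level of the 13 was 323 to 388 CPM in neonatal VM, 632 CPM in neonatal TN, 683 to 849 CPM in adult VM and 335 to 487 CPM in adult TN libraries. Its most abundant members in adult cells included miR-486a-5p and miR-486b-5p, near-identical miRNAs whose reads may be split. MiR-486a-5p stood at 86.0 and 76.8 CPM in neonatal VM and 220.0 CPM in neonatal TN, against 246 and 294 CPM in adult VM and 121 and 162 CPM in adult TN. Of the 7 markers that could be tested, 3 were higher in neonatal cells, 1 was lower and 3 did not pass the edgeR test. The shares over all 288 tested miRNAs were 26.4% higher and 27.4% lower, and nothing is read from the counts of so few markers. Both arms of miR-126a, of platelets and progenitors, were higher, with log2 fold changes of 2.17 for miR-126a-5p and 1.28 for miR-126a-3p (neonatal over adult, edgeR adjusted p = 0.00326 and 0.0122). MiR-126a-3p was low, at 15.8 and 15.2 CPM in neonatal VM and 3.42 to 7.16 CPM in the other libraries. Only the neonatal VM libraries brought it into the test, so its call is not independent of that choice. MiR-143-3p, of stromal cells, was higher too, at 1.82 (edgeR adjusted p = 0.0163). MiR-10a-5p, also a progenitor marker, was at -1.52 (edgeR adjusted p = 0.0115), and miR-486a-5p at -0.71 did not pass (0.224). The part of these markers in the results on miR-150 was not tested. MiR-142a-5p, a miRNA of blood lineages, stood at 43348 CPM or more in every library, and miR-181a-5p, known for its high level in thymocytes, at 16417 CPM or more. A miRNA table cannot show CD8, CD44 or CD122.

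MiR-150-5p was lower in neonatal than in adult cells, in both subsets. It stood at 77562 and 66475 CPM in neonatal VM and at 62258 CPM in neonatal TN, against 229398 and 207898 CPM in adult VM and 365659 and 435179.6 CPM in adult TN. The CPM used here carry TMM factors, which set the libraries on a common centre. The 3 neonatal libraries lay together and below all 4 adult ones, with no overlap. Averaged over both subsets, the log2 fold change, neonatal over adult, was -2.01 (SE 0.25, edgeR adjusted p = 2.59e-04, lower in 3 of 3 neonatal libraries than in any adult one). Of the 288 miRNAs tested, 53.8% passed this test and 27.4% passed it as lower, against 26.4% as higher, so a call alone does not set miR-150-5p apart. Its place by size of change was 45 of 288. Among the 18 miRNAs averaging 10000 CPM or more, it had the largest fall, and the second was let-7g-5p at -1.19. That average spans both ages, so a fall can itself take a miRNA out of the 18. MiR-29a-3p fell further, by -2.84, and was not among them. It stood at 12342 to 15124 CPM in adult libraries and at 1643 to 2163 CPM in neonatal ones. Scaling by library totals alone moved the median of all tested miRNAs by 0.45 (log2) and gave -1.56 for miR-150-5p (edgeR adjusted p = 0.00133), with 119 miRNAs called higher and 53 lower in place of 76 and 79.

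**Figure D1:**
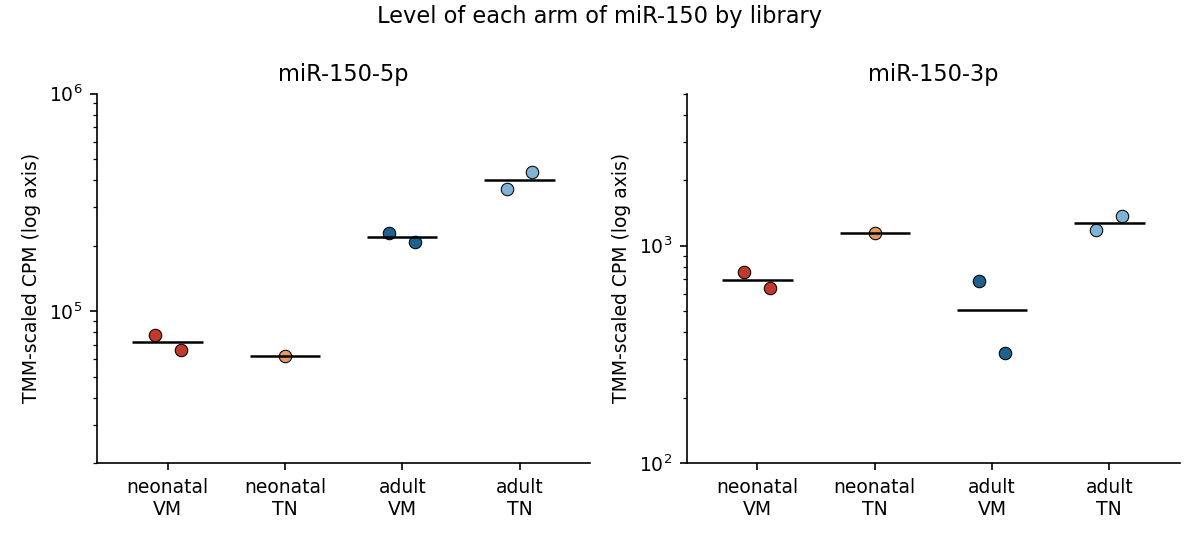
Level of miR-150-5p (left) and miR-150-3p (right) in each library, in TMM-scaled CPM on log axes. Points are libraries and lines are group means. The neonatal libraries lie between 62258 and 77562 CPM for the 5p arm, below all adult libraries, while for the 3p arm the ages overlap and TN libraries lie above VM libraries.

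The size of the fall differed between the subsets. In TN cells it was -2.69 (log2, SE 0.23, edgeR adjusted p = 2.89e-06), or 6.43-fold, from 1 neonatal and 2 adult libraries, where 47.9% of miRNAs passed and 21.5% passed as lower. In VM cells it was -1.60 (SE 0.17, edgeR adjusted p = 9.24e-06), or 3.04-fold, from 2 and 2, where 53.8% passed and 30.9% passed as lower. The test of the difference itself, the age by subset interaction, gave 1.08 (log2, SE 0.26, edgeR adjusted p = 0.0293), meaning a smaller fall in VM cells. Of the tested miRNAs 7.99% passed the interaction test, 1.74% with a positive value (5 miRNAs positive and 18 negative, which was 18 and 12 with upper quartile factors). The interaction did not pass without adult TN replicate 2 (1.09, edgeR adjusted p = 0.108) or without neonatal VM replicate 1 (1.08, edgeR adjusted p = 0.0990). It rests on the lone neonatal TN library, whose spread is taken from the other groups.

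The subsets differed in the level of miR-150-5p in adult cells. Adult VM averaged 218648 ± 15203 CPM and adult TN 400420.0 ± 49158 CPM (SD, n = 2 each), a log2 fold change, VM over TN, of -0.87 (SE 0.16, edgeR adjusted p = 0.00176), where 38.9% of miRNAs passed. Both adult VM libraries lay below both adult TN ones. In neonatal cells the order was the other way, at 72019 ± 7839.9 CPM in VM (SD, n = 2) and 62258 CPM in TN, and the difference of 0.21 did not pass (SE 0.20, edgeR adjusted p = 0.593, with 9.72% of miRNAs passing). Over both ages the difference between VM and TN was -0.46 (SE 0.24, edgeR adjusted p = 0.179, with 24.7% passing, or 31 miRNAs higher and 40 lower, which was 59 and 27 under library totals). Without the neonatal TN library that comparison holds adult TN cells as its only TN cells, and it gave -0.88 (edgeR adjusted p = 0.00171). In order of level the groups stood as neonatal TN, neonatal VM, adult VM and adult TN from low to high, and the neighbours whose difference did not pass were neonatal TN and neonatal VM.

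As a part of the library, miR-150-5p was the most abundant miRNA in each of the 4 adult libraries. It ranked 2 and 4 in the neonatal VM libraries and 3 in the neonatal TN library. Its count was 0.761 and 0.749 times that of the most abundant other miRNA, miR-92a-3p, in neonatal VM and 0.362 times that of miR-181a-5p in neonatal TN. In adult VM it was 1.64 times that of miR-92a-3p and 1.45 times that of miR-142a-5p, and in adult TN it was 2.25 and 2.24 times that of miR-92a-3p. It took 9.95% and 8.46% of all counts in neonatal VM and 6.71% in neonatal TN, against 21.0% and 18.3% in adult VM and 32.9% and 34.0% in adult TN. The 95% Wilson interval of the single neonatal TN value was 6.68 to 6.74%, an interval for counting error alone, as PCR copies of 1 molecule were not marked. The shares of the ages did not overlap, and an exact two-sided permutation test over the 3 neonatal and 4 adult libraries gave p = 0.0571, the smallest that 35 labelings allow. A share depends on all other counts. Set against every count outside miR-150, there were 11.1 and 9.25 counts of miR-150-5p per 100 others in neonatal VM and 7.20 in neonatal TN, against 26.6 and 22.5 in adult VM and 49.2 and 51.6 in adult TN. Between the mean neonatal and the mean adult library, the share of miR-150-5p differed by -18.2 percentage points. The next largest difference of any miRNA between these means was 3.72 points, for miR-181a-5p. The neonatal mean holds 2 VM and 1 TN library and the adult mean 2 of each, so both values depend on that mix. MiR-181a-5p differed strongly by subset (log2 VM over TN -2.62). In TN cells it stood at 171813 CPM in the neonatal library, against 73769 and 104380 CPM in the adult ones.

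Ratios within a library need no scaling, and miR-150-5p was set against 5 other abundant miRNAs, whose own log2 fold changes with age lay between -0.51 and 0.49. There were 1.49 and 1.34 counts of it per count of miR-16-5p in neonatal VM and 1.21 in neonatal TN, against 5.21 and 5.05 in adult VM and 9.12 and 10.4 in adult TN. Against miR-92a-3p, of the miR-17~92 cluster, the ratio was 0.761 and 0.749 in neonatal VM and 0.497 in neonatal TN, against 1.64 and 1.72 in adult VM and 2.25 and 2.24 in adult TN. In neonatal libraries miR-92a-3p was thus the more abundant of the pair, and in adult libraries miR-150-5p. The nearest libraries of the ages came closest for miR-142a-5p, at 1.44 and 0.865 in neonatal VM and 1.39 in neonatal TN, against 2.65 and 1.45 in adult VM and 7.15 and 10.04 in adult TN. For all 5 partners, miR-191-5p and miR-26a-5p included, the ratio was lower in every neonatal library than in any adult one, by 2.95-fold to 6.07-fold between geometric means. Each gave an exact permutation p of 0.0571 (3 and 4 libraries), or 0.114 when adjusted by Benjamini-Hochberg over the 14 permutation tests run. All 5 ratios share miR-150-5p as numerator, so they describe 1 fall against several partners and are not 5 separate results. For VM against TN cells over both ages, each of these ratios overlapped between the subsets.

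**Figure D2:**
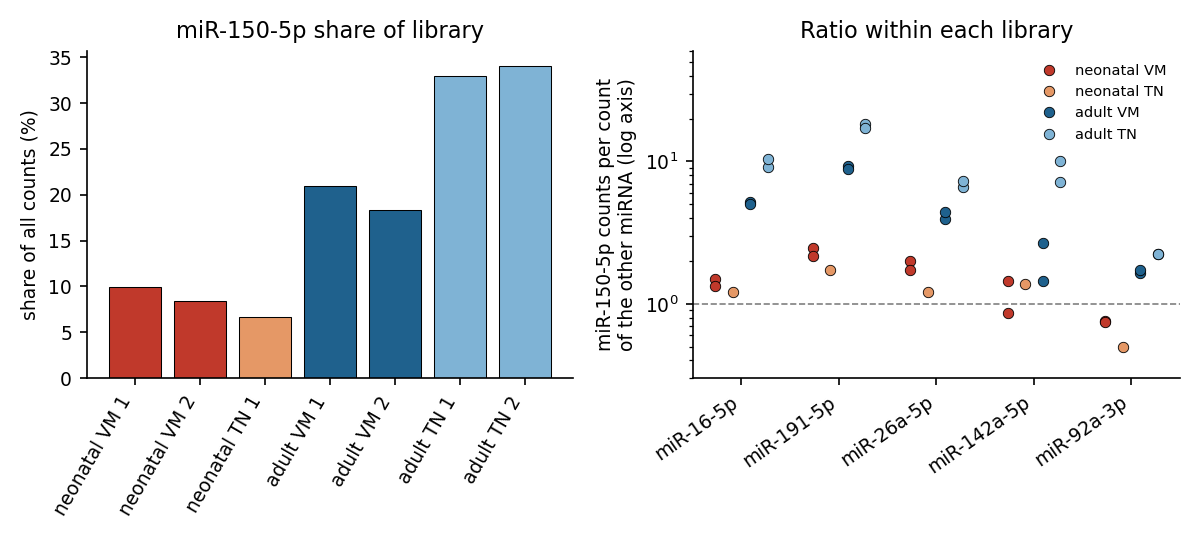
Left, share of all counts taken by miR-150-5p in each library (bars, percent). Right, counts of miR-150-5p per count of 5 other miRNAs in each library (points, log axis, dashed line at 1). Neonatal libraries take 6.71 to 9.95% and adult libraries 18.3 to 34.0%, and for each partner the neonatal points lie below the adult ones.

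MiR-150-3p, the passenger arm, followed another pattern. It stood at 754 and 636 CPM in neonatal VM and 1141 CPM in neonatal TN, against 690.0 and 322 CPM in adult VM and 1183 and 1369.6 CPM in adult TN. The TN libraries of both ages were high, the VM libraries were low, and the ages overlapped. The deposited counts were 1524 and 2435 in neonatal VM, 3667 in neonatal TN, 1714 and 931 in adult VM and 2192 and 3200 in adult TN. Its rank among all miRNAs ran from 50 in both adult TN libraries to 95 in adult VM replicate 2.

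For age, the log2 fold change of miR-150-3p, neonatal over adult, was 0.22 over both subsets and did not pass (SE 0.28, edgeR adjusted p = 0.531). Within TN it was -0.16 (SE 0.40, edgeR adjusted p = 0.774) and within VM 0.46 (SE 0.33, edgeR adjusted p = 0.267). The adult VM replicates differed 2.14-fold in this arm, against 1.18-fold between neonatal VM and 1.16-fold between adult TN replicates. Within VM it was 1.10 without adult VM replicate 1 (edgeR adjusted p = 3.19e-05) and 0.062 without replicate 2 (edgeR adjusted p = 0.762), and scaled by library totals it was 0.96 (edgeR adjusted p = 0.0483). Whether this arm differs with age in VM cells therefore turns on which adult VM library is used. The interaction of 0.62 did not pass (SE 0.52, edgeR adjusted p = 0.551), and without adult VM replicate 1 it was 1.30 (edgeR adjusted p = 0.00122).

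For subset, miR-150-3p was lower in VM cells, with a log2 fold change, VM over TN, of -1.09 over both ages (SE 0.28, edgeR adjusted p = 0.0298), lower in 4 of 4 VM libraries than in any TN one. Of the tested miRNAs 13.9% passed as lower in VM. In adult cells the value was -1.34 (SE 0.33, edgeR adjusted p = 0.0161, with 15.6% passing as lower), from 506 ± 260.3 CPM in VM and 1276 ± 132 CPM in TN (SD, n = 2 each). In neonatal cells it was -0.72 (SE 0.39, edgeR adjusted p = 0.312), from 695 ± 83.0 CPM in VM (SD, n = 2) and 1141 CPM in TN. The difference over both ages did not pass without adult TN replicate 1 (edgeR adjusted p = 0.0923), adult TN replicate 2 (0.110) or neonatal VM replicate 2 (0.0807), nor with upper quartile factors (0.0505). In adult cells it did not pass without adult TN replicate 2 (-1.29, edgeR adjusted p = 0.0918), and its value changed to -2.02 when adult VM replicate 1 was left out and to -1.003 when replicate 2 was. The neonatal value of -0.72 passed without either adult VM library (edgeR adjusted p = 0.0110 and 1.37e-05), where the estimate of the spread no longer held both adult VM replicates.

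The ratio of the arms was lower in neonatal cells. The 5p arm fell, and with TMM factors and all libraries no change of the 3p arm with age passed (0.22 over both subsets). A test that did not pass does not show that the 3p arm was unchanged. There were 103 and 104 counts of miR-150-5p per count of miR-150-3p in neonatal VM and 54.6 in neonatal TN, against 332 and 646 in adult VM and 309 and 318 in adult TN. The neonatal VM replicates and the adult TN replicates each lay close together, at 1.02-fold and 1.03-fold apart, while the adult VM replicates were 1.94-fold apart. As a share of both arms, the 3p arm made up 0.962% and 0.948% in neonatal VM and 1.80% in neonatal TN (95% Wilson interval 1.74 to 1.86%), against 0.300% and 0.155% in adult VM and 0.322% and 0.314% in adult TN. The 5p arm was thus nearly all of the pair in every library. No library of one age reached the values of the other.

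The ratio was tested with limma on the log2 counts of both arms, over the 80 hairpins with a mean of at least 10 counts in each arm. For miR-150 the log2 arm ratio, neonatal minus adult, was -2.30 (SE 0.29, limma adjusted p = 1.20e-04), a 4.94-fold lower ratio, seen in 3 of 3 neonatal libraries. It was the largest of the 80 differences in size, and the median of all 80 was 0.33. Of the hairpins 18.8% passed, 13.8% with a higher and 5% with a lower ratio of 5p to 3p in neonatal cells. The 4 with a lower ratio were miR-150, miR-139 (-2.27), miR-296 (-1.61) and miR-27a (-0.86), named after their values were seen. They did not all change as miR-150 did. In miR-296 the 3p arm was at 2.13 and the 5p arm at 0.63 (log2, neonatal over adult). In miR-27a the 3p arm is the more abundant, and the 5p arm was at -1.27 against -0.39. Among those with a higher ratio, miR-221, miR-27b, miR-363 and miR-29a have 3p as the more abundant arm. In these, as in miR-150, the abundant arm went down relative to the other. An edgeR fit of the counts of both arms, with each library as a block, gave -2.31 (adjusted p = 1.36e-04). Leaving out each library in turn gave values from -2.58 to -2.10, all past the threshold. The difference between subsets, VM minus TN, was 0.71 and did not pass (SE 0.29, limma adjusted p = 0.181, where 3.75% passed). The interaction was 0.36 (SE 0.53, limma adjusted p = 0.709), and 0 of 80 hairpins passed that test in limma or in edgeR, with 10 at an unadjusted limma p under 0.05.

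**Figure D3:**
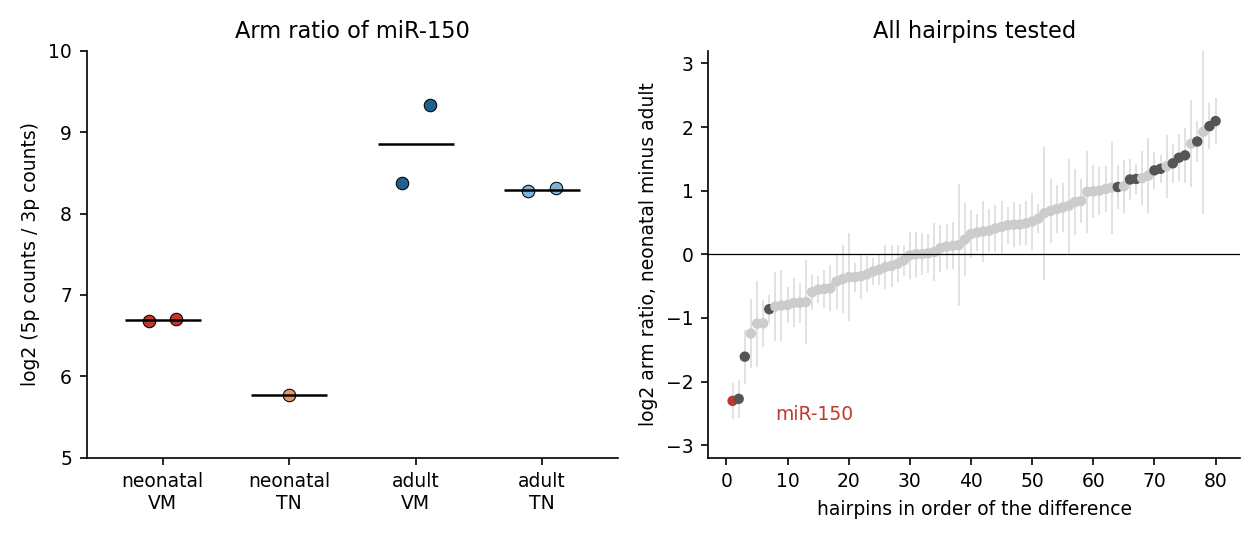
Left, log2 ratio of 5p to 3p counts of miR-150 in each library (points) with group means (lines). Right, the difference of the log2 arm ratio, neonatal minus adult, for 80 hairpins in order of size, with the SE as bars, miR-150 in red and others past the limma threshold in dark grey. MiR-150 lies lowest, at -2.30.

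Averaged over the 7 libraries, the log2 arm ratio of miR-150 was 7.64, which placed it at 6 of 80 from the most 5p-dominated hairpin. Its neighbours in that order were let-7i above (8.73) and miR-30d below (7.61). In let-7i the ratio moved the other way with age, by 1.77 (SE 0.33, limma adjusted p = 0.00128), since let-7i-3p was lower in neonatal cells by -1.62 (log2) and let-7i-5p was at 0.19. In miR-30d the ratio differed by 0.10 (SE 0.37, limma adjusted p = 0.862).

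How often the arms of a hairpin were called alike was counted in the 66 hairpins with both arms in the edgeR test. In 17 of them the more abundant arm was called lower in neonatal cells. The less abundant arm was called lower too in 10 of these, was called higher in 0 and did not pass in 7, among them miR-150. Among all tested miRNAs 27.4% were called lower and 26.4% higher. Not passing does not mean that the arms parted. In those 7 the less abundant arm was below 0 in miR-466c (-0.95), miR-155 (-0.53), miR-532 (-0.22) and miR-30b (-0.11). It was above 0 in miR-150 (0.22), miR-139 (0.38) and miR-221 (0.30). Of hairpins with falls of the abundant arm like that of miR-150, some had both arms called lower and others only the abundant arm. They were named after their values were seen. The less abundant arm was at -2.04 in miR-101a, where the abundant arm was at -2.14, and at -1.29 in miR-29c, where it was at -2.01 (log2, neonatal over adult). In miR-139, a miRNA that falls on T cell activation, the arms parted as in miR-150. MiR-139-5p stood at 371 and 396 CPM in neonatal VM and 267 CPM in neonatal TN, against 1577 and 1397 CPM in adult VM and 856 and 1015 CPM in adult TN. MiR-139-3p stood at 41.0 and 32.7 CPM in neonatal VM and 28.3 CPM in neonatal TN, against 26.6 and 26.6 CPM in adult VM and 20.5 and 27.0 CPM in adult TN. In CPM, levels of the 3p arm of miR-139 are low, and its change of 0.38 did not pass (edgeR adjusted p = 0.191).

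**Figure D4:**
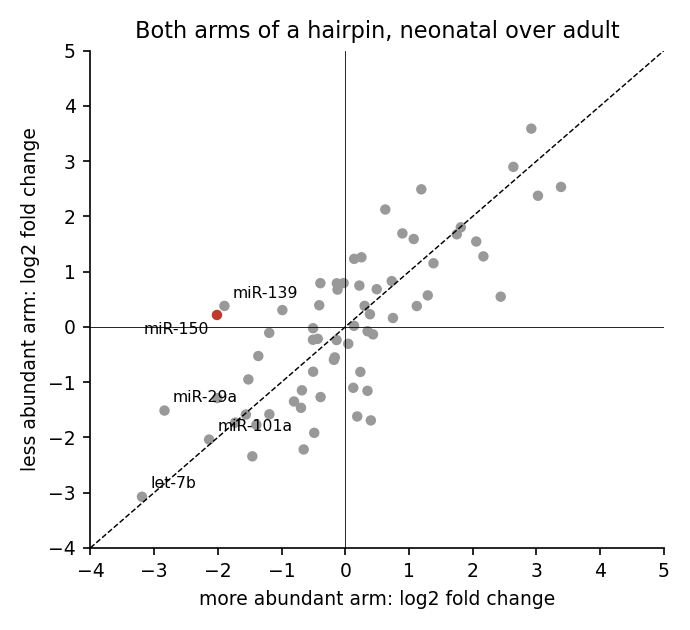
Log2 fold change, neonatal over adult, of the more abundant arm (x axis) and the less abundant arm (y axis) of 66 hairpins, with the line of equal change dashed. MiR-150 (red) lies far above the line, at -2.01 and 0.22, beside miR-139, while let-7b and miR-101a lie near it.

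The miRNAs whose pattern was most like that of miR-150-5p were sought among 164 others averaging 50 CPM or more, by Pearson's r of log2 CPM over the 7 libraries. The 5 highest were miR-669a-3p (0.99), miR-872-3p (0.98), miR-361-3p (0.98), let-7d-3p (0.96) and miR-467d-5p (0.94). The points share the split by age, so these values describe the libraries and carry no test. Let-7d-3p, a passenger arm of the let-7 family, stood at 521 and 472 CPM in neonatal VM and 738 CPM in neonatal TN, against 1433 and 1365 CPM in adult VM and 1782 and 2169 CPM in adult TN. MiR-361-3p stood at 126 and 129 CPM in neonatal VM and 175 CPM in neonatal TN, against 489 and 427 CPM in adult VM and 661 and 765 CPM in adult TN. Both share with miR-150-5p the order in which adult TN is highest and the neonatal libraries are lowest. MiR-669a and miR-467d have near-identical copies among which reads could be split, so their values are uncertain. The 3 lowest r were those of miR-148a-3p, miR-301a-3p and miR-301b-3p, all at -0.99. MiR-148a-3p stood at 3230.3 and 3112 CPM in neonatal VM and 3303 CPM in neonatal TN, against 569.6 and 727 CPM in adult VM and 389 and 361 CPM in adult TN.

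Between the arms of miR-150 themselves r was 0.20 over the 7 libraries. The miRNAs most like miR-150-3p were miR-30c-1-3p (0.96), miR-674-3p (0.89), miR-423-3p (0.89), miR-342-5p (0.86) and miR-328-3p (0.85). Of these 5, all but miR-328-3p had, like miR-150-3p, their lowest level in adult VM replicate 2. For miR-30c-1-3p and miR-342-5p it was 39.4 and 196 CPM there, against 105 and 595 CPM in adult VM replicate 1. The 5 were picked by r over the same 7 libraries, so a shared low point follows in part from that choice. The 3 least like it were miR-30d-3p (-0.98), miR-19b-3p (-0.97) and miR-142a-3p (-0.96).

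Of 10 other miRNAs known from resting lymphocytes, all tested, 4 were lower in neonatal cells over both subsets, 1 was higher and 5 did not pass the edgeR test. Among all tested miRNAs 27.4% were lower and 26.4% higher, so the counts of the list are near the background and nothing is read from them. The median log2 fold change of the list was -0.42, beside -0.05 for all tested miRNAs. Under library totals, which moved the median of all tested miRNAs by 0.45, that of the list was 0.03. The 4 that fell were miR-101a-3p (-2.14), miR-139-5p (-1.90), miR-30b-5p (-1.19) and let-7g-5p (-1.19), and miR-191-5p rose (0.49). By subset 4 of the 10 were higher in VM cells, 0 were lower and 6 did not pass, at a median of 0.43 beside 0.01 for all tested, of which 10.8% passed as higher and 13.9% as lower. Those were miR-101a-3p (1.48), miR-142a-5p (0.98), miR-142a-3p (0.81) and miR-139-5p (0.61). MiR-101a-3p, for example, stood at 324 and 460 CPM in neonatal VM and 213 CPM in neonatal TN, against 1677 and 2956 CPM in adult VM and 644 and 590 CPM in adult TN. It was low in neonatal libraries as miR-150-5p was, but highest in adult VM, where miR-150-5p was not.

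MiR-15a and miR-16, which are known in human cells to target MYB as miR-150 does, did not fall with neonatal age. MiR-16-5p stood at 52154 and 49668 CPM in neonatal VM and 51417 CPM in neonatal TN, against 44017 and 41192 CPM in adult VM and 40097 and 42011 CPM in adult TN. Its log2 fold change, neonatal over adult, was 0.28 (edgeR adjusted p = 0.108). It passed as higher with RLE factors, library totals and both scalings that left abundant miRNAs out. MiR-15a-5p was at -0.03 with age (edgeR adjusted p = 0.904) and was higher in VM than in TN cells, at 0.62 (edgeR adjusted p = 0.0310). MiR-34a-5p, the third of that list, was below the level needed for the test.

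Of 10 miRNAs known to change on T cell activation, 4 were higher and 2 lower in neonatal cells, and 4 did not pass the edgeR test, at a median of 0.20 beside -0.05 for all tested. With 26.4% of all tested miRNAs higher and 27.4% lower, these counts too are near the background. Those higher were miR-31-5p (4.64), miR-210-3p (2.92), miR-132-3p (1.17) and miR-18a-5p (1.12), and those lower were miR-155-5p (-1.36) and miR-221-3p (-0.99). In adult libraries miR-31-5p stood at 6.57 to 9.17 CPM and miR-210-3p at 0.856 to 8.64 CPM, under the 10 CPM of the filter. Both thus entered the test through neonatal libraries only, and the size of their changes rests on low adult values. Under library totals 6 of the 10 were higher and 1 lower. By subset 4 were higher and 1 lower in VM cells and 5 did not pass, at a median of 0.66 beside 0.01 for all tested, of which 10.8% were higher and 13.9% lower. MiR-155-5p (1.09), miR-221-3p (0.93), miR-146a-5p (1.82) and miR-21a-5p (2.21) were the higher ones, and miR-132-3p was lower (-2.24).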

How the data were processed

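Small RNA libraries (TruSeq kit) of sorted spleen CD8+ T cells were analysed from 1 table in which the authors deposited estimated counts per mature arm and precursor. The submitters' processing notes name mm10, and aligner and counter are not given in the sources used here. Values were summed per mature name and rounded. All 7 libraries, grouped by title, were used, and the 288 miRNAs reaching 10 CPM in 2 or more libraries went into edgeR 4.0.16 (quasi-likelihood, robust, TMM factors; R 4.3.3) with Benjamini-Hochberg adjustment at 0.05. An additive model gave the averages for age and for subset, and a model of 4 group means gave the rest. Arm ratios, log2((5p + 0.5)/(3p + 0.5)), were tested in limma 3.58.1 with trend and robust settings. The scripts were tested on simulated data. Both arms, the lists and the naming rule (nearest patterns, neighbouring hairpins, list members that passed) were chosen with earlier results of these data known. How the counting split reads shared by near-identical miRNAs is not given in the sources used here. Depth leaves 931 counts behind the lowest miR-150-3p value.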

Additional observations from a re-analysis of the deposited data

Results flagged for a closer look

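The fall of miR-150-5p with neonatal age differed between the subsets by the test of the age by subset interaction, at 1.08 on the log2 scale (SE 0.26, edgeR adjusted p = 0.0293). All 3 neonatal libraries lay below all 4 adult ones, and the fall was larger in TN cells, where the neonatal group is 1 library. Over the alternatives with all libraries the interaction ranged from 1.07 to 1.49, with adjusted p from 8.20e-05 to 0.0313. It did not pass without adult TN replicate 2 (edgeR adjusted p = 0.108) or without neonatal VM replicate 1 (0.0990).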

How the results depend on the processing

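The falls of miR-150-5p with age over both subsets, in TN and in VM, its lower level in adult VM than in adult TN and the lower arm ratio in neonatal cells kept direction and call in every setting run (scaling, filters, DESeq2, limma voom, replicate block, each library left out; for the ratio pseudocounts, minimum counts, edgeR). Scaled by library totals, miR-150-3p with age was 0.20 in TN, where its sign turned, and 0.96 in VM, where it passed, and with upper quartile factors its VM to TN difference of -0.96 did not pass. The cause was not tested. With each library left out, miR-150-3p ranged from -0.068 to 0.48 for age over both subsets, with the sign turned without adult VM replicate 2, from 0.062 to 1.10 for age in VM, from -1.37 to -0.87 for subset over both ages, from -2.02 to -1.003 for subset in adult cells, from -0.76 to -0.53 for subset in neonatal cells and from 0.26 to 1.30 for the interaction. MiR-150-5p ranged from -0.88 to -0.29 for subset over both ages and from 1.08 to 1.28 for the interaction, and the arm ratio interaction from -0.12 to 0.84, with the sign turned without adult VM replicate 1. Comparisons that need the neonatal TN library gave no value without it.

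Replicate numbers appear in several groups, but differences between replicates 1 and 2 correlated at 0.13, -0.17 and 0.01 between pairs of groups, so they were not taken as pairs. With the replicate block, miR-150-5p with age was -1.99, the interaction 1.10 and the arm ratio -2.23, and no call on miR-150 changed, while calls by subset went to 42, against 71 without it. Counts of calls moved by over 1.5 times with the 100 CPM filter, where fewer miRNAs were tested, to 79 from 155 for age, 41 from 71 for subset, 69 from 138 for age in TN and 93 from 155 for age in VM. Calls by subset in neonatal cells, 28, were 52 with upper quartile factors and 53 with no filter, and interaction calls, 23, were 14 without the 5 most abundant miRNAs, 43 with no filter and 37 in DESeq2. With a library left out, calls by subset were 111 without neonatal TN and 18 to 47 without neonatal VM replicate 1 or 2, adult VM replicate 1 or either adult TN library. Calls for age in TN were 86 and 83, and for subset in adult cells 51 and 23, without adult TN replicate 1 and 2. For subset in neonatal cells they were 56 and 77 without adult VM replicate 1 and 2, and 16 and 17 without replicate 2 of adult TN or neonatal VM. Interaction calls were 86 and 59 when an adult VM library was left out, 9 and 6 for adult TN and 13 and 15 for neonatal VM replicate 1 and 2. Library totals gave 106 miRNAs higher and 38 lower for age in TN (76 and 62 with TMM), 117 and 49 for age in VM (66 and 89) and 21 and 14 for subset in neonatal cells (9 and 19), which were 38 and 14 with upper quartile factors. Hairpins called with age, 15, were 9 with at least 100 counts per arm and 23 without adult VM replicate 2. Those called by subset, 3, ran from 0 to 8 over all settings, and those for the interaction, 0, reached 8 without adult VM replicate 1. Depth limits miR-150-3p more than miR-150-5p, and the lone neonatal TN library gives no spread of its own.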
